A study of Caenorhabditis elegans with 2 samples.

Results

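The genes sec-61.A, sec-61.B and sec-61.G encode the alpha, beta and gamma subunits of the SEC61 translocon, and they were examined as 3 of the 19973 protein-coding genes of the nuclear genome of Caenorhabditis elegans. They were taken by name, and every peak summit in their promoter windows was collected from the deposited lists, a promoter window being the stretch that begins 1000 bp before a transcript start, for each annotated start, and ends 200 bp after it. The genes had been selected on their peaks in these lists, with the signal values known, so the peak values at their promoters are a description and carry no test. Chromatin immunoprecipitation followed by sequencing had been done on whole L4 larvae, the last larval stage, of strain OP234. The strain carries the unc-119(ed3) allele on chromosome III and the insertion wgIs234, from which jun-1 is made as a fusion with eGFP. The sex of the larvae is given as males and females pooled. JUN-1 is the worm's counterpart of JUN, 1 of the subunits that make up the AP-1 transcription factor. There were 2 biological replicates in 1 group, with no second genotype, stage or treatment, so that the design allows a description of where the tagged protein was recovered and no comparison between conditions. The labels do not name the promoter that drives the fusion, and in whole animals the cell types in which a site was bound cannot be told apart.

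The SEC61 complex is the protein-conducting channel of the endoplasmic reticulum (ER) membrane. Ribosomes making secreted or membrane proteins dock on it, and the growing chain passes through the channel into the lumen or sideways into the membrane. The alpha subunit spans the membrane many times and forms the pore. The beta and gamma subunits are small proteins, each anchored by a single helix, and gamma clasps the alpha subunit from the side. In the worm the gamma subunit gene was first known as emo-1, from mutants whose oocytes fail in ovulation.

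The replicate lists held 19396 and 23742 regions on the ce11 genome, the joint list of both replicates 13085, and the list past the authors' reproducibility threshold 899, called reproducible here. Read depth is unknown, since the lists carry no read counts. The signal given per region is the authors' own value on a scale not stated in the sources used here, so it is read within a list. Ratios between the replicates are read only beside those of all reproducible peaks found in both. Regions were of nearly fixed width, with 13037 of the 13085 joint regions 376 bp wide, and in 99.6% of joint regions the summit was the middle of the region. In the reproducible list 852 of the 899 regions had that width, and in 94.9% the summit was the middle. A summit position is therefore mostly the centre of a window of that width.

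All 3 genes had a reproducible peak in a promoter window, and each had exactly 1. Over all protein-coding genes 669 of 19973 had a reproducible summit in such a window (3.35%). The strongest was at sec-61.G, with a joint signal of 156, then at sec-61.B with 131, and the weakest was at sec-61.A with 70.4. These are ranks 58, 83 and 413 of 899, which are 6.45%, 9.23% and 45.9% of the way down the list. The gamma and beta sites were thus near its top and the alpha site near its middle, where the median signal was 67.5. Among the 669 genes with a reproducible promoter peak, 41 had a stronger one than sec-61.G, 59 than sec-61.B and 331 than sec-61.A.

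The sequences at these sites are shown because they hold the letters searched for below, among them the GA repeat found at many peaks of this experiment. They are from the RefSeq genome of assembly WBcel235, which is ce11, read 5′ to 3′ along the minus strand, on which all 3 genes lie. The beta and gamma sequences are the 201 bases centred on the joint summit. For the alpha gene, whose summit lies in a transcribed leader, 30 bases chosen for their GA repeats are shown, which lie to 1 side of the summit. Capitals mark any letters that match 1 of 11 short motifs on either strand, and TCTCTC is the GA repeat GAGAGA read on the other strand.
sec-61.A, IV:14824932-14824961: ctgTCTCTCccccgtctatctTCTCTCcat
sec-61.B, IV:2389044-2389244: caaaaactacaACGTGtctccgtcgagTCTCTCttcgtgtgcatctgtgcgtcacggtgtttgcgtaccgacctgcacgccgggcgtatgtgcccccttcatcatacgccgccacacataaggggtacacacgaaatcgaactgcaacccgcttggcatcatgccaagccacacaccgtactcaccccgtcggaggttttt
sec-61.G, V:10897277-10897477: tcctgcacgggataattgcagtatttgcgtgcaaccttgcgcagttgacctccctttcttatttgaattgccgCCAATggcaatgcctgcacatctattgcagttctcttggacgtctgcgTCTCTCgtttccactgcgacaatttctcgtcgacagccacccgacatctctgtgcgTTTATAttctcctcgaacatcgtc

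The pore-forming subunit gene sec-61.A (WBGene00013311) spans IV:14822540-14825264 on the minus strand. Its reproducible region ran from 14824873 to 14825248 with the summit at 14825061. The joint signal was 70.4. The matching region reached 41.5 in replicate 1, rank 296 of 19396, and 25.4 in replicate 2, rank 1053 of 23742. The site was thus inside the strongest 899 regions of replicate 1 and outside those of replicate 2. The summits in the replicates were 13 bp apart.

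The sec-61.A summit lay within the gene. It fell in the 5′ untranslated region of the longer transcript, in exon 1, 203 bp downstream of that transcript's start. That is 3 bp beyond the downstream limit of 200 bp, and the summit entered the window only through the shorter transcript, whose start lies 934 bp further along the gene and 731 bp from the summit. The shorter transcript has no annotated 5′ untranslated region, so its annotated start is where its coding sequence begins. The leader of the longer transcript is 414 bp long. It was compared with 15982 transcripts from each gene's most upstream start, only those with an annotated 5′ untranslated region. Of these, 3.59% had a longer leader, and the median was 30 bp. Of all 899 reproducible summits, 31 (3.45%) lay in a 5′ untranslated region outside coding sequence.

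The sec-61.A peak was shared with rps-18, which encodes a protein of the small ribosomal subunit and is read in the opposite direction. The rps-18 start lay 618 bp from the summit, and the starts of the divergent genes are separated by 414 bp. Of the starts around it, that of the longer sec-61.A transcript was the nearest to the summit, and the peak lists do not assign the region to either gene. Further along sec-61.A, weaker joint regions stood at 1713 bp from the start, with a signal of 29.3, and at 2908 bp, just past the 3′ end, with 38.6. The latter reached 27.4 in replicate 1 (rank 824) and 12.4 in replicate 2 (rank 6838), and neither was reproducible. In replicate 2 alone, 1 more region had its summit in the promoter window, 23 bp downstream of the shorter transcript's start, with a signal of 12.03 (rank 7443). Other regions seen only in replicate 2 near this gene lay outside the window and were weaker.

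The beta subunit gene sec-61.B (WBGene00021427) is short, spanning IV:2388185-2388675 on the minus strand with 2 exons and 81 codons. Its reproducible region, from 2388956 to 2389331, had its summit at 2389144, 469 bp upstream of the start. The joint signal was 131, with 69.9 in replicate 1 (rank 79) and 58.8 in replicate 2 (rank 124). The site was among the strongest in either replicate list, and the summits were 16 bp apart.

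This region lies between sec-61.B and trap-3, which encodes the gamma subunit of the translocon-associated protein (TRAP) complex, a partner that sits beside SEC61 in the ER membrane. The genes are divergent, with 769 bp between their starts, and the summit was nearer to trap-3, 301 bp upstream of its start. A single reproducible peak therefore stood between genes of the channel and of its accessory complex. Annotated non-coding RNA genes overlap the site on either strand. The summit fell in the exon of Y38F2AR.17, on the plus strand, 193 bp from its start, and 47 bp upstream of Y38F2AR.16, on the minus strand. Weaker joint regions lay 631 bp downstream of the sec-61.B start, with a signal of 30.8, and at -1849 bp, upstream of it, with 36.9, and neither was reproducible.

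The gamma subunit gene sec-61.G (WBGene00001303) spans V:10896658-10897143 on the minus strand, with 2 exons and 68 codons. Its reproducible region, from 10897189 to 10897564, was intergenic, with the summit at 10897377, 234 bp upstream of the start. The joint signal was 156, with 85.2 in replicate 1 (rank 51) and 68.6 in replicate 2 (rank 83). This was the strongest of the 3 sites in the joint list and in each replicate list, and its summits were 8 bp apart.

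The sec-61.G peak had no divergent gene within a promoter window. The start of F32D8.7, which runs the other way and encodes a protein with a Kunitz-type protease inhibitor domain per RefSeq, was 1058 bp from the summit, just outside the limit of 1000 bp. The window of F32D8.13, annotated by RefSeq as phosphomevalonate kinase, an enzyme of the mevalonate pathway, did hold the summit at 834 bp. This gene follows sec-61.G on the same strand with a gap of 114 bp, so sec-61.G stands between it and the peak. Other joint regions near sec-61.G were weak, with signals from 25.8 to 30.3 at 678 bp to 2218 bp downstream of the start, and none was reproducible.

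**Figure D1:**
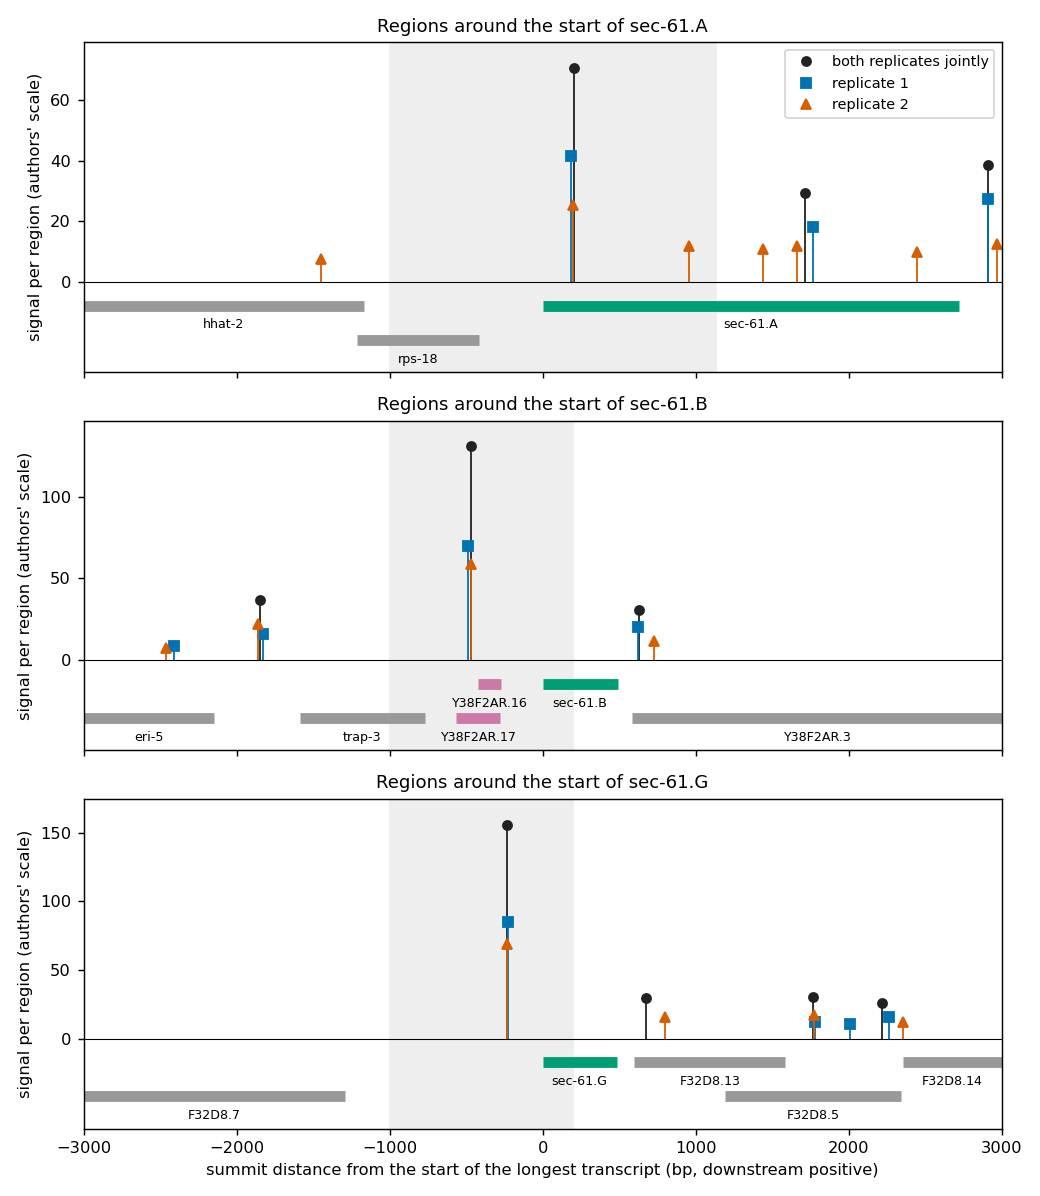
Signal per region (vertical, authors' scale) against the distance of its summit from the start of the longest transcript (horizontal, bp, downstream positive) for sec-61.A, sec-61.B and sec-61.G, from the joint list and each replicate list. Grey bands are promoter windows (for sec-61.A joined over both starts), green bars the gene, grey bars other protein-coding genes and pink bars non-coding RNA genes, with the member's strand above the opposite strand. The tallest site is upstream for sec-61.B and sec-61.G and 203 bp inside sec-61.A. At sec-61.A a further region at 2908 bp has a joint signal of 38.6, against 70.4 at the tallest.

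Sharing a peak with another gene was common but not the rule. Of the 519 reproducible summits in promoter windows, 157 (30.3%) lay in the windows of 2 or more genes, and 142 (27.4%) in windows of genes on opposite strands. The sec-61.A and sec-61.B summits were of the latter kind, and the sec-61.G summit was in windows of genes on 1 strand. Many worm messages receive a spliced leader, and the annotated start of such a message can be the splice site and not the place where transcription begins. The median position of the 519 was 224 bp upstream of the nearest start whose window held them, which is close to that at sec-61.G, and most lay between -714 and -18 bp, the outer deciles of their positions. Downstream positions were held by 34 of them (6.55%). The nearest tRNA, snoRNA, snRNA, miRNA or rRNA gene was 38926 bp from the sec-61.A summit, 9508 bp from that of sec-61.B and 43089 bp from that of sec-61.G.

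The replicates gave the same order of the 3 genes, and the deposited signal was higher in replicate 1 at each. The replicate lists may differ in scale, so the ratios are set beside those of all matched peaks. All 3 summits were matched within 100 bp in both replicate lists, as were 846 of the 899 reproducible peaks, for which the median distance between the replicate summits was 25 bp. The ratio of replicate 1 to replicate 2 signal was 1.63 at sec-61.A, 1.19 at sec-61.B and 1.24 at sec-61.G. On the log2 scale these are 0.71, 0.25 and 0.31, against a median of -0.0056 and an SD of 0.55 over the 846 matched peaks. The beta and gamma ratios were within that SD of the median. The alpha ratio was beyond it, and 52 of the 846 peaks (6.15%) had a higher one. The deposited -log10 q-value was at the top of the joint list, 3.01, for all 3 peaks, a value that 517 joint regions share. In replicate 2 it was 2.48 at sec-61.A and the list's highest value, 3.11, at both other genes.

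**Figure D2:**
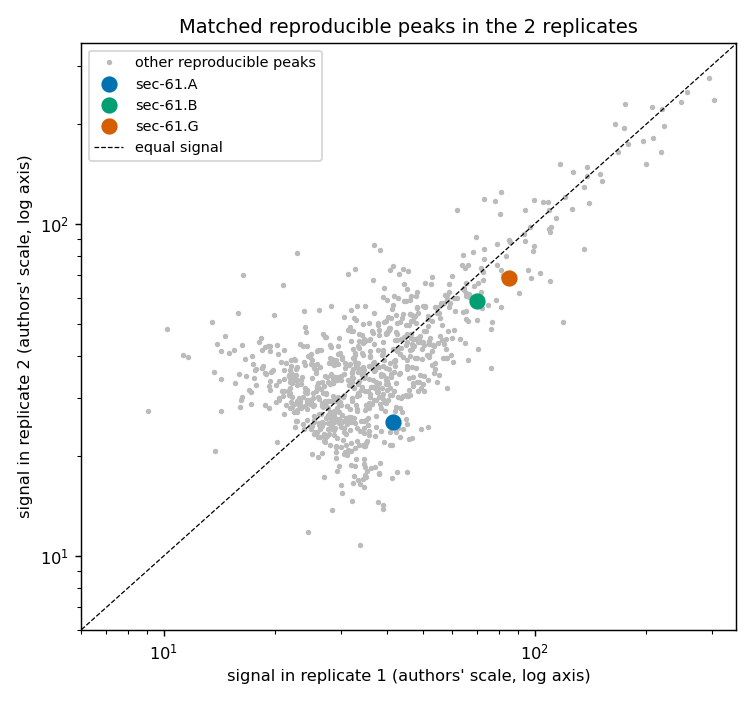
Signal in replicate 2 (vertical, log axis) against signal in replicate 1 (horizontal, log axis), both on the authors' scale, for the 846 reproducible peaks matched in both replicates, with the 3 SEC61 genes coloured and a dashed line at equal signal. The sec-61.B and sec-61.G points lie near the line in the upper part of the cloud, and the sec-61.A point lies below it, with 41.5 against 25.4.

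Genes had a region in their promoter window far more often in the unfiltered lists, which hold background as well. In the joint list 24.7% of protein-coding genes had a summit in a promoter window, in the replicate 1 list 31.3% and in the replicate 2 list 35.6%, and all 3 SEC61 genes were among them in each. With the 899 strongest regions of replicate 1, 3.27% of genes were called and all 3 SEC61 genes with them. With the 899 strongest of replicate 2, 3.12% of genes were called, with sec-61.B and sec-61.G among them and sec-61.A not.

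The peaks next in rank show how the signal compares with other places in the genome. At sec-61.G (156) the peak just stronger, with 157, had its nearest start at 3054 bp, that of fos-1, the gene of the other AP-1 subunit, and the one just weaker, with 155, lay at the promoters of rpl-12, a gene of the large ribosomal subunit, and lin-54. At sec-61.B (131) the neighbours in rank were a peak 1975 bp from the start of hif-1, the hypoxia-inducible factor gene, with 133, and one 1966 bp from that of sup-26, with 130. At sec-61.A (70.4) they were the promoter peak of rpn-11, a proteasome subunit gene, with 70.6, and a peak 1847 bp from the start of T26C11.8, with 70.3. The rpn-11 peak had nearly equal signals of 34.7 and 36.2 in replicates 1 and 2, unlike that of sec-61.A.

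The GA repeat GAGAGA was found near all 3 summits, at unequal distances. On either strand it lay 23 bp downstream of the sec-61.G summit, 71 bp upstream of the sec-61.B summit, and at 105 and 123 bp downstream of the sec-61.A summit, measured to its centre along the gene. Within 50 bp it was thus present at sec-61.G, and at 266 of the 899 reproducible summits (29.6%). The same length of sequence centred 150 bp upstream of the most upstream start held it in 8.42% of the 19973 genes. Within 150 bp it was present at all 3, at 50.8% of reproducible summits and at 21.6% of those promoters. These are matches of letters, and no test was made over 3 genes.

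The remaining motifs were searched in the same way. Within 150 bp none held the AP-1 site TGANTCA, which was present at 11.5% of reproducible summits and 10.2% of promoters. None held the cyclic AMP response element TGACGTCA (2% and 1.58%), nor the unfolded protein response element TGACGTGG (1.78% and 0.781%), the site used by XBP-1 and ATF-6 in ER stress. The E-box CACGTG (10.8% and 5.75%), the GATA site TGATAA (25.3% and 30.8%) and the heat shock element GAANNTTC (12.3% and 19%) were also not found there. With shares of this size in general, an absence at 3 summits says little. The shorter letters ACGTG, which both the unfolded protein response element and the E-box contain, occurred once, at sec-61.B 87 bp upstream of the summit, against 33.7% of summits and 27.2% of promoters. The letters CCACG, the end of the mammalian ER stress response element, occurred once, 87 bp downstream of the sec-61.A summit (32.5% and 20.7%). The CCAAT box occurred once, 25 bp upstream of the sec-61.G summit (40.5% and 45.2%). The TATA box letters TATAAA lay within 150 bp of all 3 summits, at 79 bp downstream for sec-61.G, 129 bp upstream for sec-61.B and 131 bp downstream for sec-61.A, against 21.4% of reproducible summits and 39.7% of promoters. Within 50 bp they were at 0 of the 3 summits, and no test was made. These distances are from the summit and do not place the letters at a TATA box position before a gene's start. The share of G and C in the 101 bases at the summit was 59.4% at sec-61.B, 47.5% at sec-61.G and 41.6% at sec-61.A, around a median of 48.5% over reproducible summits.

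Of the other genes by which proteins enter the ER, a minority had a reproducible promoter peak. Of 34 such genes listed, 31 were matched in the annotation, and 6 of the 31 (19.4%) had one, against 3.35% of all protein-coding genes. One of the 6, trap-3, was counted through the peak it shares with sec-61.B. In the joint list 12 of 31 (38.7%) had a promoter summit against 24.7% of all genes, in replicate 1 14 (45.2%) against 31.3%, and in replicate 2 16 (51.6%) against 35.6%. The list was chosen with earlier results of these data known, hsp-3 among them, and no test of it was made.

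The strongest of these was at hsp-3, which encodes a BiP chaperone that binds chains as they emerge in the lumen. Its joint signal was 150, replicate 1 gave 73.01 and replicate 2 gave 78.7, and the summit lay 46 bp upstream of the start with no other window sharing it. Its level in the joint list lay between those of sec-61.G and sec-61.B. The other BiP gene, hsp-4, the worm's widely used reporter of ER stress, had no promoter summit in the joint list. Among the partners that act with SEC61 after translation, dnj-29, the relative of SEC63, had a weak joint region of signal 22.2 that was not reproducible, and C18E9.2, which encodes SEC62, had none.

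In the TRAP complex all 4 genes had a joint promoter summit and 2 of them a reproducible one. Over all protein-coding genes the shares were 24.7% and 3.35%. Beside trap-3 the reproducible peak was at trap-2, which encodes the beta subunit, in a region shared with ile-2. Its joint signal of 69.99 splits into 45.3 in replicate 1 and 24.9 in replicate 2, close to the values at sec-61.A. The alpha and delta subunit genes, trap-1 and trap-4, had joint signals of 19.9 and 30.5, where the median of the joint list was 21.8. The trap-1 summit was matched in replicate 2 only and the trap-4 summit in replicate 1 only. The signal recognition particle brings ribosomes to the translocon. Of the 7 genes reported here for the particle and its receptor, 2 had a joint promoter summit, against 24.7% of all protein-coding genes. These were F37F2.2, which encodes a protein of the particle per RefSeq, with a signal of 21.5, and R186.3, which RefSeq names as a protein related to ADP-ribosylation factors, with 38.2, and neither was reproducible.

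Of the enzymes that act on chains at the translocon, the signal peptidase subunit gene spcs-2 had a reproducible peak of signal 67.2, with 30.2 in replicate 1 and 34.8 in replicate 2, in a region shared with mrg-1. The gene of the intramembrane protease imp-2 had one of 86.1, shared with enpl-1, which encodes the lumenal chaperone endoplasmin. Among 5 oligosaccharyltransferase genes, whose products attach sugar chains, dad-1 had one of 92.4, with 50.1 and 44.1 in the replicates. It was shared with the trehalase gene tre-1. At imp-2 and dad-1 the summit was nearer to the start of the gene that shared the peak. None of the 6 matched genes of tail anchor insertion and the ER membrane complex, asna-1 and emc-1, emc-2, emc-3, emc-5 and emc-6, had a promoter summit in the joint list. Of all protein-coding genes 24.7% had one, so an absence at so few genes says little. The GA repeat lay within 50 bp of the summit at none of the 6 other ER entry genes with a reproducible peak, against 29.6% of reproducible summits in general. At that distance 1 of the 3 SEC61 summits held it. The peak of trap-3, 1 of the 6, is that of sec-61.B, which held the repeat at 71 bp. Wider distances were not counted for the other ER entry genes, and the difference was not tested.

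**Figure D3:**
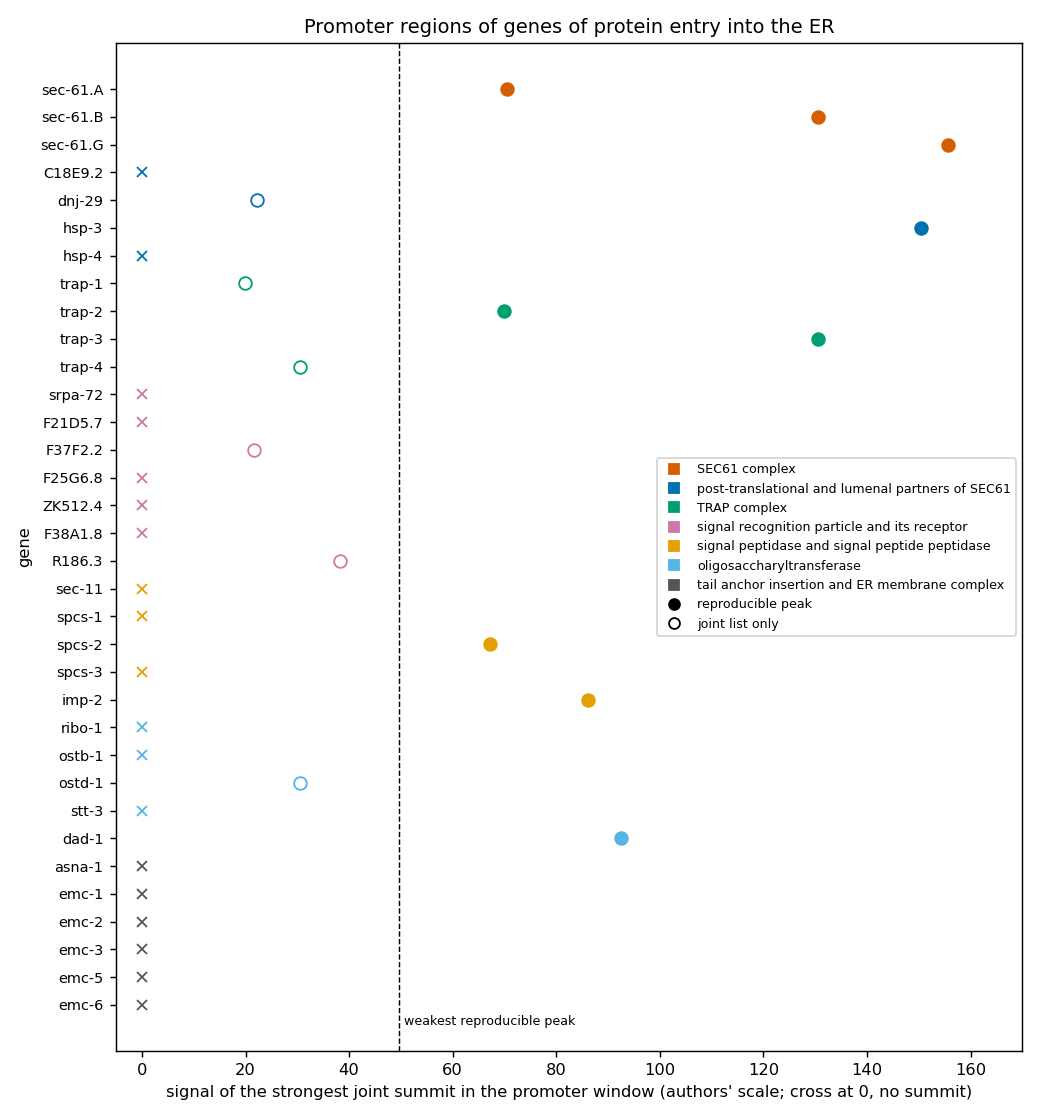
Signal of the strongest joint summit in the promoter window (horizontal, authors' scale) for the 3 SEC61 genes and 31 other genes of protein entry into the ER (vertical, coloured by complex). Filled circles are reproducible peaks, open circles regions of the joint list that were not, crosses genes with no joint summit, and the dashed line the weakest reproducible peak, at 49.6. The 3 SEC61 genes are filled, as are 6 of the 31 others, of which hsp-3 is the strongest.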

How the data were processed

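Chromatin immunoprecipitation libraries of 2 biological replicates were analysed from the deposited peak lists on ce11. The control libraries and the ce10 lists were not used here. Per the deposited file descriptions, regions were called from the alignments and a control, for each replicate and jointly, and the joint list was then reduced to regions past a reproducibility threshold. Neither aligner nor peak caller is named, being not given in the sources used here. Signal per region, as the authors deposited it, was used to rank regions within a list, and their deposited -log10 q-value was only read. Calling against a control lowers regions of high control background.

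Annotation was Ensembl release 115 on WBcel235, the same assembly as ce11, and all 57122 region ends lay within its chromosomes. Transcript starts of the 3 genes are identical in RefSeq. A summit was column 2 plus column 10 plus 1. Replicate summits were matched within 100 bp. Motifs were searched on both strands within 50 bp of the summit, and also within 100 bp and 150 bp. The members, gene lists and motifs were chosen with earlier results of these data known, and no test was made. Genes were named if they were members, shared a member's peak, stood next to one in rank or were listed ER entry genes. Of the latter, 3 had no match, and 1 gene first listed is not reported here. The window, matching and motif code was checked on planted positions. Alternatives changed the window, the starts, the assignment, the threshold, the matching and the replicates. Whether the replicates were separate cultures is not stated. Python 3.11.15, numpy 2.4.6, pandas 2.3.3 and matplotlib 3.10.9 were used.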

Additional observations from a re-analysis of the deposited data

How the results depend on the processing

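The count of 3 SEC61 genes with a reproducible promoter peak moved most where each summit went only to the window with the nearest start. Of the SEC61 genes 1, sec-61.G, remained, since rps-18 and trap-3 took the other peaks. The other ER entry genes fell from 6 to 4, without imp-2 and dad-1, and all genes called fell from 669 (3.35%) to 508 (2.54%). At the sec-61.A summit the longer transcript's own start, at 203 bp, was nearer than that of rps-18, at 618 bp. The window of that longer transcript ended just short of the summit and so did not compete. The count of SEC61 genes was 2, without sec-61.A, with windows from 500 bp upstream (2.58% of all genes called) and with only the most upstream start of each gene (3.09%), the latter chosen after seeing the data. Windows from 500 bp upstream hold no joint summit for sec-61.A, so its signal there has no value. It was 3 with windows from 2000 bp (4.5%), with RefSeq starts (3.28%, also added later), with any overlap of the region (3.6%) and in the stronger part of the list (1.79%). Leaving out a replicate gave 2 to 3 SEC61 genes and 5 to 6 other ER entry genes, with 3.12% and 3.27% of all genes called. Without replicate 1, sec-61.A and trap-2 were lost. All 3 summits matched between replicates at 50 bp, 200 bp and by overlap. The GA repeat was at 1 summit within 50 bp, 2 within 100 bp and 3 within 150 bp. At the same distances the TATA box letters were at 0, 1 and 3 summits, and ACGTG and CCACG each at 0, 1 and 1. No paired analysis was possible because there is 1 group. With no read counts, what depth limits could not be assessed.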

Other observations

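The 201 bases at the sec-61.B summit hold a near-perfect palindrome, gcttggcatcatgccaagc, at IV:2389076-2389094, centred 59 bp downstream of the summit along the gene. Its arms of 9 bases pair around a single base. It was noticed in the printed sequence and then measured, and arms of at least that length around a loop of up to 6 bases occur at 15 of the 899 reproducible summits (1.67%). The longest such arms at the sec-61.A and sec-61.G summits were 6 bases, a length reached at 265 of the 899 (29.5%). The palindrome lies within the overlap of the non-coding RNA genes Y38F2AR.16 and Y38F2AR.17.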
